A study of Mus musculus with 18 samples.

Results

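The average effect of Klf3 loss was measured in mouse macrophages as the mean of 3 genotype differences, Klf3 knockout (KO) minus wild type (WT), taken at 0 h, after 8 h of vehicle and after 8 h of LPS. Members were the arrays of both genotypes in all conditions, which made 18 of the 18 arrays of the series, 9 KO and 9 WT. The 6 groups of 3 arrays were Klf3 KO and WT cells at 0 h, Klf3 KO and WT cells after vehicle, and Klf3 KO and WT cells after LPS. The cells were macrophages derived from bone marrow of FVB/NJ males aged 10 to 14 weeks, grown for 7 to 10 days in medium with an added share of L929 supernatant, which carries the growth factor M-CSF. That growth medium was replaced by regular medium at 0 h in every group, so both 8 h groups also differ from 0 h by its absence. LPS, a component of the Gram-negative outer membrane sensed by TLR4, was given at 100 ng/mL, and the vehicle was PBS. Neither the Klf3 allele nor the deleted exons are given, and the labels do not say whether the 3 arrays of a group came from separate mice or cultures, so every p-value measures only the spread between these samples.

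KLF3 belongs to the Krüppel-like factors, which bind DNA through zinc fingers. These factors recognise CACCC boxes and related GC-rich motifs, and KLF3 is known mainly as a repressor that recruits the corepressor CtBP. An average over conditions describes genes that differ between the genotypes whatever the stimulus, but a large difference in 1 condition can also carry it. Most leading averages are therefore given here with their 3 parts, and a test of whether the parts differ was run for every gene. An average given without its parts may rest on 1 condition.

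Differences are on the log2 scale of normalized intensity, KO minus WT, and errors after ± are standard errors of the fit with n = 9 arrays per genotype. The fit treats all arrays as independent, although the labels do not say whether same-numbered arrays of a genotype share a culture. A gene is called at an adjusted p under 0.05 (limma, Benjamini-Hochberg over 17097 genes). A called gene is termed steady within 2-fold where the 95% intervals of all 3 pairwise differences between conditions lay within 1 log2 unit of 0, and is termed different between conditions where limma's moderated F test over the conditions was called. The nonspecific level, taken as the signal of absent RNA, was set in each array at the 95th percentile of its 23 control probe sets for nonspecific hybridisation, and between 52.4% and 58.7% of genes lay above it in an array. The median over all genes of the average difference was -0.003, and the single conditions had medians of 0.0044 (0 h), 0.0057 (vehicle) and -0.018 (LPS). Arrays deviated from their group mean with an SD of 0.171 to 0.266 in KO cells and of 0.165 to 0.336 in WT cells, and the largest deviation was that of WT replicate 1 after LPS. The log2 difference between the 5′ and 3′ Gapdh control probe sets is an RNA quality measure. Over all conditions it ran from -0.49 to 0.15 in KO arrays and from -0.63 to 0.16 in WT arrays. After LPS, in replicate order, it was -0.41, -0.49 and -0.40 in KO arrays, against -0.07, -0.40 and -0.63 in WT arrays.

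The knocked-out gene was examined first. Klf3 has 6 probe sets on the array, and 3 of them were lower in KO cells. Probe set 1421604_PM_a_at read from 5.53 to 17.4 intensity units in KO arrays, with a median of 9.08, and from 129 to 294 units in WT arrays, with a median of 210. It lay above the nonspecific level in 2 of 9 KO arrays and in 9 of 9 WT arrays, and the signal in KO cells was at least 12-fold lower when set at that level (fitted difference -4.25 ± 0.23, adjusted p = 4.88e-08 over all probe sets). Probe set 1429360_PM_at was 4.98-fold lower (-2.31 ± 0.13, adjusted p = 5.6e-08), with 36.7 to 58.8 units in KO arrays and 131 to 350 units in WT arrays. Probe set 1454666_PM_at, the brightest and the one that stands for Klf3 in the counts over genes, was 3.47-fold lower (-1.79 ± 0.17), with 67.7 to 175 units in KO arrays and 295 to 704 units in WT arrays. The genotypes did not overlap in any of these 3 probe sets.

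Another probe set went the other way. Probe set 1431630_PM_a_at was higher in KO cells (1.02 ± 0.18, adjusted p = 0.0117), by 1.51 at 0 h, 1.31 after vehicle and 0.24 after LPS. It read 165 to 595 units in KO arrays and 116 to 325 units in WT arrays. The last pair, 1441200_PM_at and 1442920_PM_at, were not called (0.05 and 0.29, adjusted p = 0.946 and 0.271). Which probe sets lie in the deleted part is not stated, so these probe sets cannot be placed inside or outside it. In KO cells the signal was near background at 1421604_PM_a_at and was reduced but above the nonspecific level in 9 of 9 arrays at 1429360_PM_at and 1454666_PM_at. Moderated F tests over the conditions were called for none of the 6 (adjusted p from 0.135 to 0.964). At 1454666_PM_at the 3 differences were -1.18 (0 h), -1.92 (vehicle) and -2.28 (LPS).

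**Figure D1:**
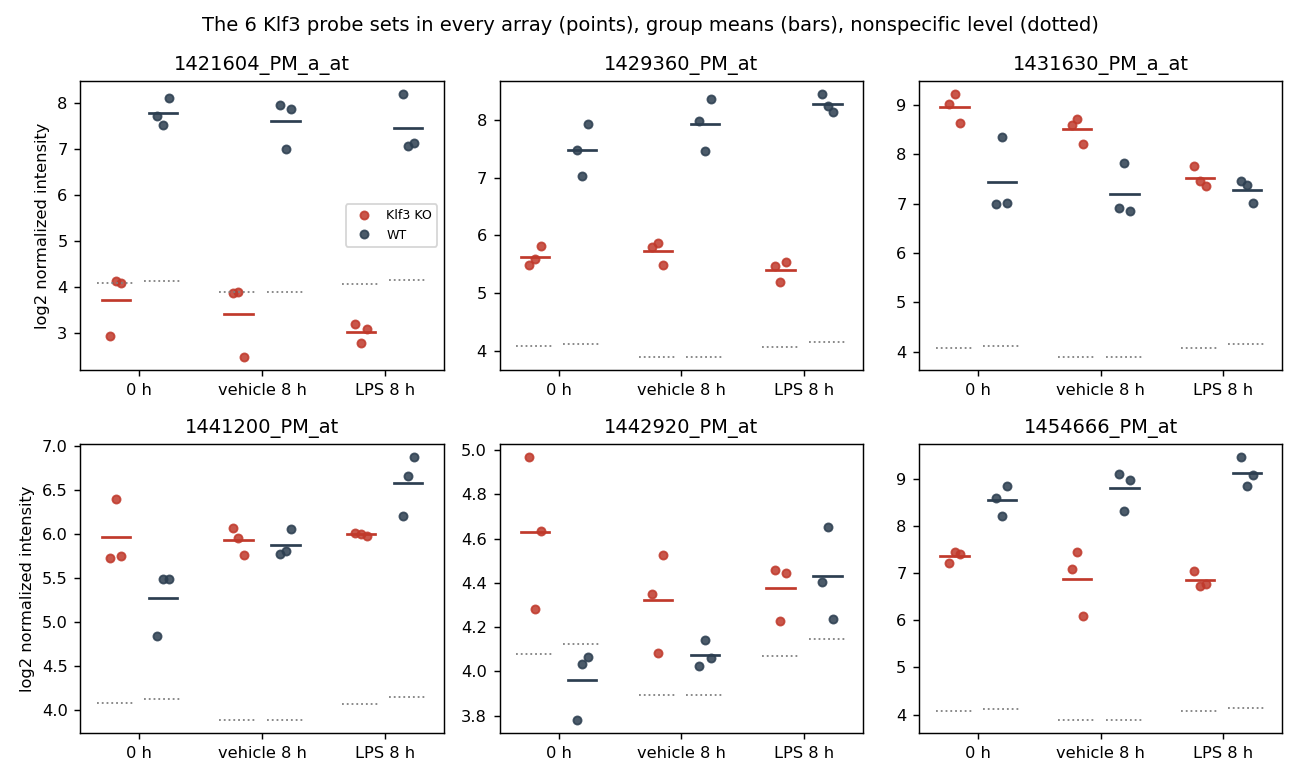
Each panel plots 1 Klf3 probe set, with log2 normalized intensity on the y axis and the 3 conditions on the x axis. Points are single arrays, bars are means of 3 arrays, red is Klf3 KO and dark blue is WT, and dotted lines mark the nonspecific level. KO arrays lie below all WT arrays at 1421604_PM_a_at, 1429360_PM_at and 1454666_PM_at, and KO means lie above WT means at 1431630_PM_a_at.

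Over all genes, 266 differed on average, 1.56% of the 17097 tested. Of these, 146 were higher in KO cells (0.854%) and 120 were lower (0.702%), while the values without normalization gave 80 higher and 36 lower. The smallest called average was 0.245, and 37 genes averaged at least 2-fold, 26 higher and 11 lower. The standard error of an average had a median of 0.106 among called genes, against 0.183 for a difference in 1 condition. Taken by condition, the same fit called 24 genes at 0 h (0.14%), 0 after vehicle and 1020 after LPS (5.97%). The vehicle comparison held 778 genes at an unadjusted p under 0.05, which is 4.55% of those tested, and no other tool was run on it.

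The 266 averages were of 3 kinds. A total of 66 was steady within 2-fold (0.386% of all genes), 44 higher and 22 lower. Another 92 differed between conditions, 45 higher and 47 lower, and in 42 and 45 of these the difference after LPS was the largest of the 3. For the other 108, 57 higher and 51 lower, the F test was not called and the intervals were too wide to bound a change at 2-fold. Over all genes the F test called 257, or 1.5%, and 10278 genes (60.1%) had intervals within 2-fold whether called or not. Of the called genes 196 had the same sign in all 3 conditions, and 26.5% of all genes did.

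How far an average speaks for all conditions followed from this split. The steady higher genes had median differences of 0.38 at 0 h, 0.37 after vehicle and 0.48 after LPS, and the steady lower genes had -0.42, -0.22 and -0.56. Higher genes that differed between conditions had medians of 0.13, 0.08 and 2.13, and lower genes of that kind had -0.05, -0.04 and -1.54. Averaging 0 h and vehicle alone gave 35 higher and 7 lower genes, and 36 of the 266 calls were among them. In 44 called genes KO and WT arrays did not overlap in any condition, 28 higher and 16 lower, beside 0.216% and 0.135% of all genes. The 9 KO and 9 WT arrays were fully separated in only 4 of the 17097 genes, and these were Klf3, L1cam, Pls3 and Tekt2.

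The counts moved with single sets of arrays. Leaving out the 3 arrays, 1 per condition, that carry KO number 1, 2 or 3 gave 88, 55 and 72 higher genes and 76, 38 and 46 lower genes, leaving out WT number 1 or 2 gave 68 and 46 lower genes, and leaving out WT replicate 1 after LPS alone gave 246 higher genes. The steady count was 19, 9 and 11 without KO number 1, 2 and 3, and 23, 33 and 39 without WT number 1, 2 and 3. When the 3 arrays of a genotype and number were averaged and tested 3 against 3, 63 genes were called, 42 higher and 21 lower. Among them were 61 of the 266 main calls (22.9%).

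**Figure D2:**
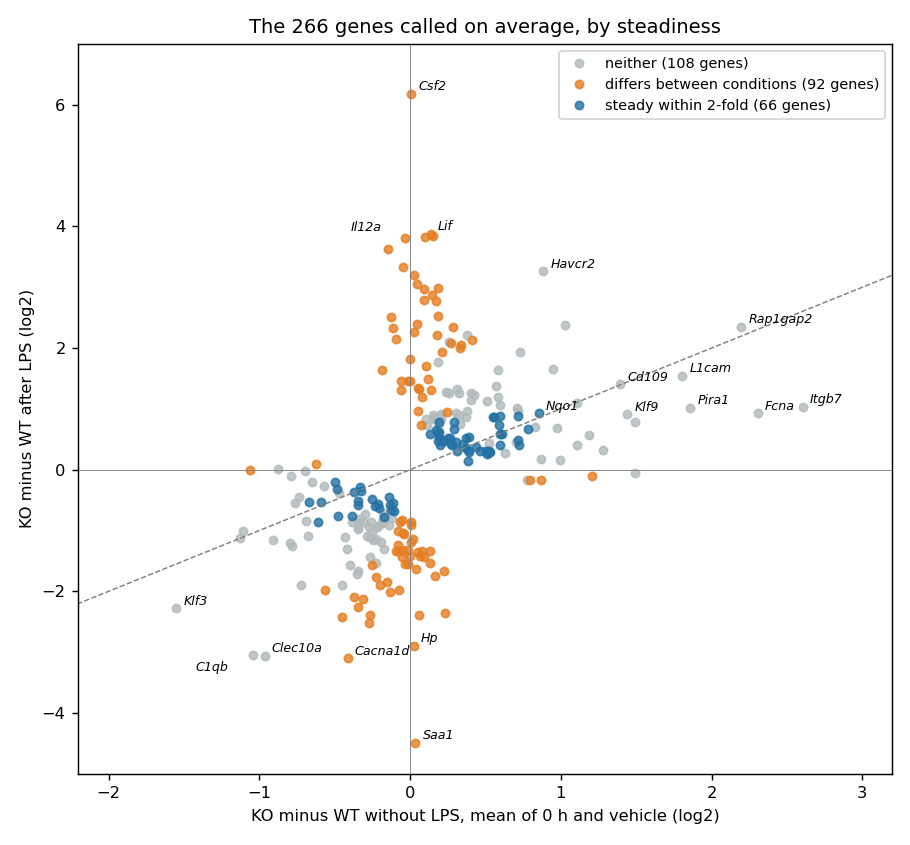
Each point is 1 of the 266 genes called on average, with the mean KO minus WT difference of 0 h and vehicle on the x axis and the difference after LPS on the y axis, both in log2. Blue marks the 66 genes steady within 2-fold, orange the 92 that differed between conditions and grey the other 108. The dashed line marks equal differences, and most orange points stand near 0 on the x axis. Rap1gap2, L1cam and Cd109, the last at its brighter probe set, lie near the dashed line.

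A small set of genes held the call under every alternative tried. There were 13 in 18 alternatives, 11 higher and 2 lower in KO cells, and both lower ones, Klf3 and Sorl1, are described with their values here. The higher ones were Rap1gap2, Itgb7, Fcna, L1cam, Pira1, Cd109, Klf9, Tekt2, Ppic, Mmp8 and Nqo1. Ppic, Mmp8 and Sorl1 were picked out after their values were seen. All 13 kept 1 sign in the 3 conditions, and the F test was called for none of them. Among the alternatives, 1 averaged 0 h and vehicle alone and so removed genes carried by LPS. The evenness of this set over conditions is therefore partly built in. With that alternative set aside, 42 genes kept the call in all the others.

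Rap1gap2, which codes for a GTPase-activating protein of the small GTPase Rap1, had the largest average of the genes with 1 sign in all conditions. At 0 h its log2 intensity was 6.91, 6.95 and 6.75 in KO arrays, against 4.55, 4.48 and 4.17 in WT arrays. After vehicle it was 5.23, 5.62 and 6.60 in KO arrays, against 3.76, 4.29 and 3.63 in WT arrays, and only 1 of these WT arrays was above the nonspecific level. After LPS it was 8.07, 7.87 and 8.34 in KO arrays, against 4.89, 6.30 and 6.02 in WT arrays. The genotypes did not overlap in any condition. The average was 2.25 ± 0.20, or 4.75-fold (adjusted p = 2.17e-05), from differences of 2.47, 1.93 and 2.35 in the order 0 h, vehicle and LPS, which is the order of all such triplets here.

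L1cam, which codes for an adhesion molecule best known from neurons, was bright in all arrays. At 0 h its log2 intensity was 10.75, 10.78 and 10.85 in KO arrays, against 9.06, 9.48 and 9.33 in WT arrays. After vehicle it was 10.47, 10.58 and 10.83 in KO arrays, against 8.02, 9.59 and 7.94 in WT arrays. After LPS it was 10.32, 10.31 and 10.46 in KO arrays, against 8.47, 9.02 and 8.96 in WT arrays. The lowest KO array lay above the highest WT array over all conditions, and the average was 1.72 ± 0.18, or 3.29-fold (adjusted p = 0.00012). Cd109 codes for a GPI-anchored protein that binds TGF-beta. At its brighter probe set it varied less over the conditions, with differences of 1.53, 1.26 and 1.41. The average was 1.40 ± 0.15 (adjusted p = 0.00013). Its levels were lowest after LPS in both genotypes, at 4.83, 5.97 and 5.55 in KO arrays, against 3.67, 4.55 and 3.92 in WT arrays, and 2 of these 3 WT arrays were above the nonspecific level. The widest pairwise interval of Cd109 reached 1.06, just outside the 2-fold bound.

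Itgb7 and Fcna were the next in size. Itgb7 codes for the integrin beta 7 subunit, which pairs with alpha 4 or alpha E chains. At 0 h its log2 intensity was 9.86, 9.84 and 9.87 in KO arrays, against 6.44, 7.51 and 7.23 in WT arrays. After vehicle it was 10.06, 9.86 and 9.28 in KO arrays, against 7.36, 7.74 and 6.84 in WT arrays. After LPS it was 8.47, 7.90 and 8.10 in KO arrays, against 6.52, 8.54 and 6.30 in WT arrays, so 1 WT array, replicate 2, lay above all KO arrays. The average was 2.08 ± 0.26 (adjusted p = 0.00039), from 2.79, 2.42 and 1.04.

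Fcna codes for ficolin A, a lectin that starts the lectin pathway of complement. It averaged 1.85 ± 0.24 (adjusted p = 0.00053), from 2.48 at 0 h, 2.13 after vehicle and 0.93 after LPS. At 0 h it read 9.52, 9.99 and 9.81 in KO arrays, against 6.84, 7.56 and 7.48 in WT arrays. After LPS the genotypes overlapped, with 7.74, 6.80 and 7.70 in KO arrays, against 6.56, 7.23 and 5.68 in WT arrays. Pira1, of the paired immunoglobulin-like receptor A family of myeloid cells, had the same order of differences, 2.20, 1.53 and 1.02 (average 1.58 ± 0.20, adjusted p = 0.00053). Its near-identical family members may share the probe set's signal, so the gene is uncertain. That the difference of Itgb7, Fcna or Pira1 was smaller after LPS did not pass the F test (adjusted p = 0.339, 0.369 and 0.505).

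The remaining higher genes of this set were smaller in effect. Klf9, a Krüppel-like factor itself, averaged 1.26 ± 0.17 (adjusted p = 0.00068), from 1.63, 1.25 and 0.91. Its log2 intensity was 8.43, 8.94 and 8.88 in KO arrays at 0 h, against 6.55, 7.75 and 7.04 in WT arrays, with no overlap in any condition. Tekt2, which codes for a tektin of ciliary and flagellar microtubules, averaged 1.25 ± 0.13 (adjusted p = 0.00012) but was dim. All 9 WT arrays were under the nonspecific level, and 8 of the 9 KO arrays were above it, the exception being 1 array after LPS. With values raised to that level the average was 0.48, from 0.87, 0.62 and -0.05, so no LPS difference was left.

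Ppic, which codes for cyclophilin C, averaged 1.18 ± 0.14 (adjusted p = 0.0003), from 0.80, 1.10 and 1.65. Mmp8, a collagenase gene best known from neutrophils, averaged 0.88 ± 0.10 (adjusted p = 0.00033), from 1.31, 0.63 and 0.69. Sorl1, which codes for a sorting receptor of the endosome and Golgi, averaged -0.94 ± 0.12 (adjusted p = 0.00039), from -0.70, -0.87 and -1.26. Over all conditions its log2 intensity ran from 5.34 to 6.43 in KO arrays, with a median of 5.82, and from 5.99 to 7.58 in WT arrays, with a median of 6.96. Nqo1, which codes for a quinone reductase, was the one gene of the 13 that was also steady within 2-fold, and its values are given with the steady genes.

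**Figure D3:**
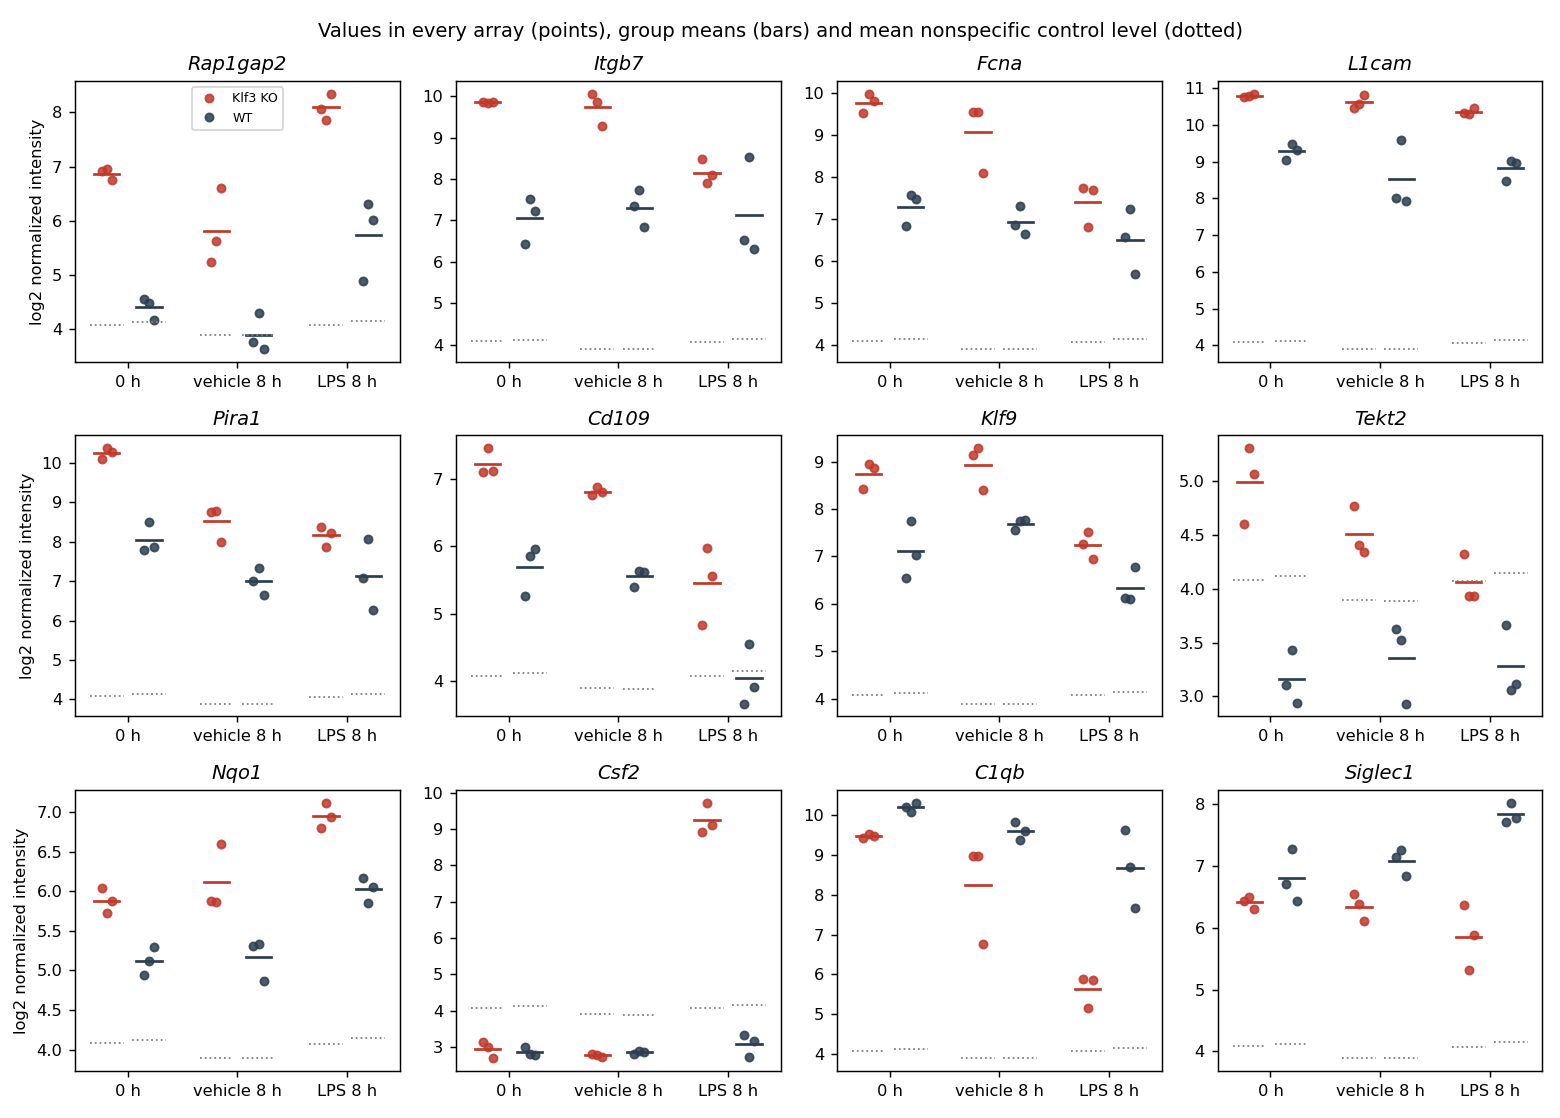
Each panel plots 1 gene, with log2 normalized intensity on the y axis and the 3 conditions on the x axis. Points are single arrays, bars are means of 3 arrays, red is Klf3 KO and dark blue is WT, and dotted lines mark the mean nonspecific level. Rap1gap2, L1cam, Cd109, Klf9, Tekt2 and Nqo1 are separated in every condition, Itgb7, Fcna and Pira1 overlap after LPS, and Csf2 is apart only after LPS.

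Since KLF3 binds CACCC boxes, the promoter letters of these genes are shown. RefSeq promoters on GRCm38.p6, 250 bases before to 50 after the start, were listed for 13605 of the tested genes and for 10 of the 12 named above other than Klf3. Where several starts are listed the first was read. The short motif CACCC, which reads GGGTG when it lies on the opposite strand, was searched on both strands. So was the longer CCACACCC, which contains the short one and reads GGGTGTGG when it lies on the opposite strand. The short motif occurred in 7 of the 10 (70%), in 82 of 124 higher genes (66.1%), in 68 of 99 lower genes (68.7%) and in 62.4% of all. The longer motif occurred in 3 of the 10 (30%), in 12 of 124 higher genes (9.68%), in 2 of 99 lower genes (2.02%) and in 3.86% of all. These are descriptions of letters in a window and show no binding. The 3 windows with the longer motif, those of L1cam (chrX:73880741-73881040, minus strand), Pira1 (chr7:3739868-3740167, minus strand) and Fcna (chr2:25627925-25628224, minus strand), are printed with those of Itgb7 (chr15:102231886-102232185, minus strand), which has the most matches of the short motif at 4, and Rap1gap2 (chr11:74610866-74611165, minus strand), which has the largest average. Capitals mark every match of either motif on either strand.
L1cam: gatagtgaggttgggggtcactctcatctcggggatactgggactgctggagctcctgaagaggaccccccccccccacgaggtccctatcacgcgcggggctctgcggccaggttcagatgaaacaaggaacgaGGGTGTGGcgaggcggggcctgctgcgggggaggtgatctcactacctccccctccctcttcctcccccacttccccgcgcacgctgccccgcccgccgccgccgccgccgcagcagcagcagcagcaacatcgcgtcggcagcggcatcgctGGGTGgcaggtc
Pira1: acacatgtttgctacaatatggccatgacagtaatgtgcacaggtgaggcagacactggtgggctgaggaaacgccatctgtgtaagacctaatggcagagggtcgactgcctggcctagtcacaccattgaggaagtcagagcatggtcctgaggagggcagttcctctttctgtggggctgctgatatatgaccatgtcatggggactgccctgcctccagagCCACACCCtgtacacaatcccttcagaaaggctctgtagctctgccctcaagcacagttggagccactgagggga
Fcna: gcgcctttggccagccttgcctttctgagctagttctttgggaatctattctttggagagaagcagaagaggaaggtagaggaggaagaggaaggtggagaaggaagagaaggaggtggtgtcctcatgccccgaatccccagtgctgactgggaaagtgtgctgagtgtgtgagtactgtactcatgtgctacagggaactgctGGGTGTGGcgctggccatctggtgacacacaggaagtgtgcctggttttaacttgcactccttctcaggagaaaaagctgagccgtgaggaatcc
Itgb7: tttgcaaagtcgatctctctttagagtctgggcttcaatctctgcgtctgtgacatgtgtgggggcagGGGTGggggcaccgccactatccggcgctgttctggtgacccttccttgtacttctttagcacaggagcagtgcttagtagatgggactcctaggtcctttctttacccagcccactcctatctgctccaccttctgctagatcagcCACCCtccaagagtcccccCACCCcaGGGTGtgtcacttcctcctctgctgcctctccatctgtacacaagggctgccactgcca
Rap1gap2: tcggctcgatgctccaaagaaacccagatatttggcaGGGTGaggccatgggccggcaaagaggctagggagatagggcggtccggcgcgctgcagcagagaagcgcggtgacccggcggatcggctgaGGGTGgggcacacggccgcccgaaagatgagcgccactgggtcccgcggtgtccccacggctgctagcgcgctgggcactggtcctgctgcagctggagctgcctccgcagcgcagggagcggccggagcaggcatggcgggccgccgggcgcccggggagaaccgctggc

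Steady genes were mostly small in effect, and Nqo1 led them. Its log2 intensity at 0 h was 6.04, 5.72 and 5.88 in KO arrays, against 4.94, 5.12 and 5.30 in WT arrays. After vehicle it was 5.88, 5.87 and 6.60 in KO arrays, against 5.31, 5.34 and 4.86 in WT arrays. After LPS it was 6.80, 7.12 and 6.94 in KO arrays, against 6.18, 5.85 and 6.06 in WT arrays. The genotypes did not overlap in any condition, and the average was 0.88 ± 0.11, or 1.84-fold (adjusted p = 0.00047), from 0.76, 0.94 and 0.93. Nqo1 is a classical target of NRF2, the factor of the antioxidant response, but it was the only called gene among the 17 measured NRF2 targets, whose median average was -0.003.

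Genes for actin and membrane proteins stood among the steady higher genes, as seen after the values were known. Pls3, which codes for the actin bundler plastin 3, averaged 0.77 ± 0.11 (adjusted p = 0.0011), from 0.57, 0.86 and 0.89, and ran from 8.14 to 9.01 in KO arrays, against 7.28 to 8.02 in WT arrays. Ahnak, which codes for a giant scaffold protein, averaged 0.42 ± 0.06 (adjusted p = 0.0011). Both kept the call in all 6 fits that each left out the 3 arrays of 1 genotype and number. Neither was called when the 3 arrays of a genotype and number were averaged and tested 3 against 3 (adjusted p = 0.0596 and 0.0768). Ahnak was also not called on the average without LPS (adjusted p = 0.164). Syne2 (nesprin 2) averaged 0.66 ± 0.13, but only 8 of 18 arrays were above the nonspecific level. Of 13 such genes looked at in this way 12 were higher and none lower, beside 0.854% higher among all genes, a group that was picked from its values and supports no statement of its own. Sptbn1 (0.45), Crip1 (0.41), S100a6 (0.37), S100a4 (0.31) and Plp2 (0.32) were also called and steady, and S100a10 was not called (0.39, adjusted p = 0.0756). S100a4 and Plp2 lost the call in all 6 of those fits, with adjusted p up to 0.22 and 0.14. S100a6 lost it in 5, Crip1 and Syne2 in 4 and Sptbn1 in 2, with adjusted p up to 0.11, 0.094, 0.097 and 0.082.

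Several signalling and metabolic genes were steady too. Traf1, an adaptor of TNF receptors, averaged 0.75 ± 0.12 (adjusted p = 0.0039), from 0.74, 0.83 and 0.67, while its level ran from 4.17 to 10.73 in KO arrays and from 3.04 to 10.17 in WT arrays. It was above the nonspecific level in all KO arrays, but in WT arrays only in 0 of 3 at 0 h, 1 of 3 after vehicle and 3 of 3 after LPS. With values raised to that level its differences were 0.69, 0.24 and 0.67 (average 0.53). Impdh1, which codes for an enzyme of guanine nucleotide synthesis, averaged 0.66 ± 0.09 (adjusted p = 0.0014). Ralgds, an exchange factor for Ral GTPases, averaged 0.64 ± 0.11 (adjusted p = 0.0082) and lost the call without KO number 2, KO number 3 or WT number 1 (adjusted p up to 0.087). The uncharacterized 1110046J04Rik averaged 0.69 ± 0.12 (adjusted p = 0.0067) and lost the call without KO number 2 (adjusted p = 0.074), and its WT arrays after LPS were all under the nonspecific level. Acp5, which codes for tartrate-resistant acid phosphatase, averaged 0.64 ± 0.12 and lost the call without any 1 of the KO numbers (adjusted p up to 0.13). On the lower side the leading steady genes were Fcrl1, an Fc receptor-like gene, with -0.69 ± 0.13 (adjusted p = 0.0144), and Aif1, which codes for the macrophage actin-binding protein IBA1, with -0.57 ± 0.11 (adjusted p = 0.0096). Each lost the call in 3 of the 6 fits, Fcrl1 without KO number 3, WT number 1 or WT number 2 and Aif1 without KO number 2, KO number 3 or WT number 2, with adjusted p up to 0.11 and 0.096.

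**Figure D4:**
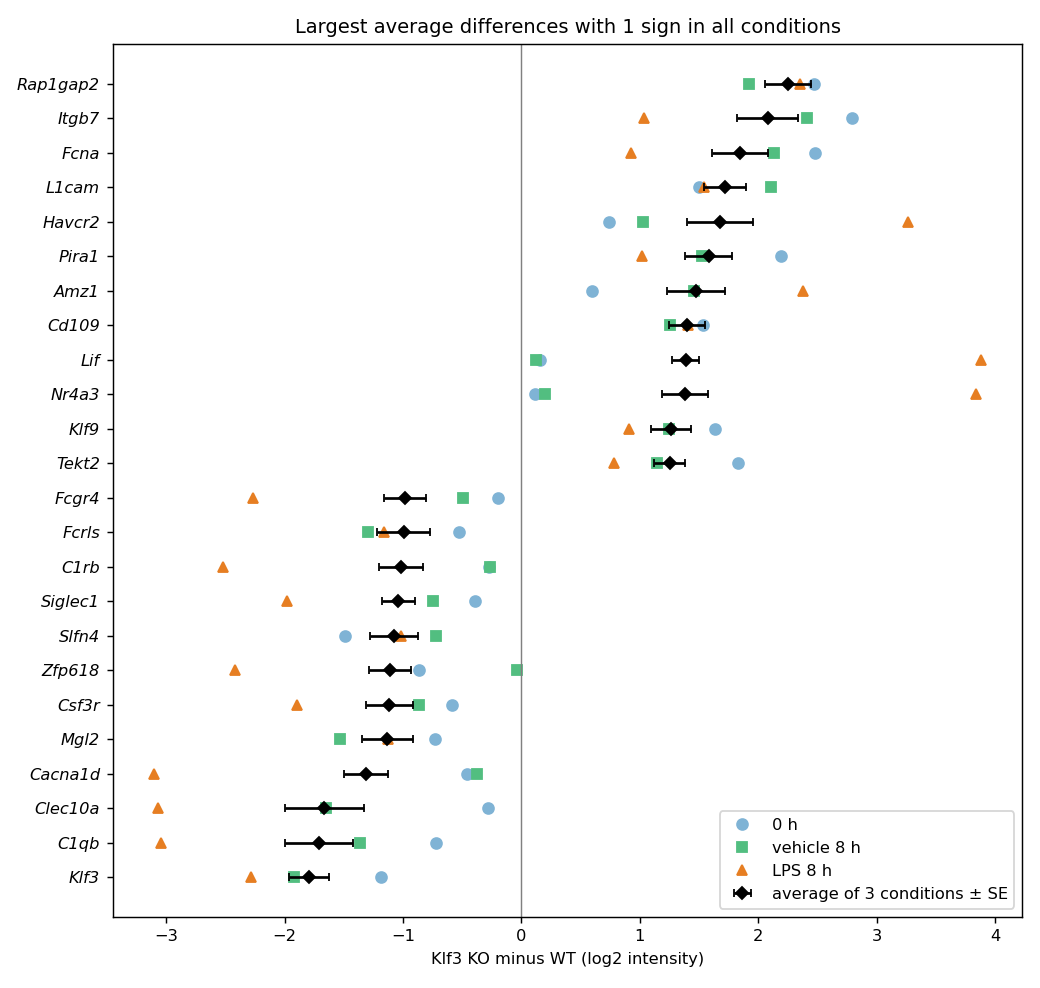
Genes run down the y axis, the 12 highest and the 12 lowest called averages with 1 sign in all conditions. The x axis is Klf3 KO minus WT in log2 intensity. Black diamonds are averages with SE bars, blue circles are 0 h, green squares vehicle and orange triangles LPS. Symbols lie close together for Rap1gap2, L1cam and Cd109, the last at its brighter probe set. The LPS triangle stands far out for Lif, Nr4a3, Havcr2, Cacna1d and C1qb.

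A second kind of higher average was carried by LPS, and cytokine genes led it. Csf2 codes for GM-CSF, a myeloid growth factor. After LPS its log2 intensity was 8.91, 9.72 and 9.10 in KO arrays, against 3.33, 2.72 and 3.16 in WT arrays, and the 3 KO arrays after LPS were the only ones of the 18 above the nonspecific level. In LPS-treated KO cells it was at least 34.2-fold higher. The differences were 0.10, -0.08 and 6.18 and the average was 2.06 ± 0.11 (adjusted p = 4.65e-08, F test adjusted p = 1.15e-09), so the average lay far from each of its 3 parts.

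Lif, a cytokine of the IL-6 family, had differences of 0.16, 0.12 and 3.88 (average 1.39 ± 0.12) and was at least 6.53-fold higher in KO cells after LPS. Il12a, which codes for the p35 subunit of IL-12, had -0.20, 0.13 and 3.81 (average 1.25 ± 0.16), with 1 of 3 WT arrays above the nonspecific level after LPS and an LPS difference of 2.83 with values raised to it. Ccl22, a chemokine for CCR4-bearing T cells, had -0.03, 0.08 and 3.21 (average 1.08 ± 0.11), and Ccl17, its close relative, had 0.27, 0.09 and 2.21 (average 0.85 ± 0.10). Cish, a STAT5-induced feedback inhibitor of cytokine receptors, had 0.02, 0.16 and 2.96 (average 1.05 ± 0.10). The nuclear receptor gene Nr4a3 had 0.11, 0.20 and 3.84 (average 1.38 ± 0.19), and Adamts4, a proteoglycan-cleaving protease gene, had 0.00, 0.20 and 3.82 (average 1.34 ± 0.14). In WT cells neither was above the nonspecific level in any array, and in KO cells after LPS Nr4a3 was at least 6.04-fold and Adamts4 at least 8.29-fold higher. Each of these 8 genes kept its call on average in all 6 fits without the arrays of 1 genotype and number, and none kept it once the LPS arrays were left out of the average. These values are from the brightest probe set of each gene. Dimmer probe sets had LPS differences of 0.32 and 0.53 for Lif, 0.02 and 0.43 for Nr4a3 and 2.45 for Adamts4. Those of Lif were above the nonspecific level in 0 and 1 arrays, and those of Nr4a3 in none.

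The cytokine and chemokine lists show the same in counts. Of 17 measured pro-inflammatory cytokine genes 7 were higher on average and none lower (41.2%, beside 1.56% of all genes), namely Csf2, Lif, Il12a, Il6, Il18, Il23a and Inhba. Their list had a median average of 0.61, made of -0.09 at 0 h, -0.07 after vehicle and 1.94 after LPS, beside -0.003 for the average over all genes, and the F test was called for 10 of the 17. Il6 averaged 1.12 ± 0.22 (adjusted p = 0.0142), from 0.07, 0.31 and 2.99. It lost the call without any 1 KO number or WT number 1 (adjusted p up to 0.11). Of 23 chemokine genes 4 were higher, Ccl17, Ccl22, Cxcl5 and Cx3cl1, which is 17.4%, and the list's median average was 0.04. Of 28 growth factor and ERK output genes 3 were higher, Nr4a3, Nr4a2 (0.48 ± 0.08) and Spry1 (0.48 ± 0.11), which is 10.7%, and the F test was called for 4. Cxcl5 and Cx3cl1 lost the call on average in 2 of the 6 fits each, Nr4a2 in 2 and Spry1 in 4 (adjusted p up to 0.13, 0.058, 0.063 and 0.16). The differences were -0.11, 0.08 and 1.46 for Nr4a2 and 0.12, -0.01 and 1.34 for Spry1. Nr4a2 and Cx3cl1 also lost the call when the mean of all probe sets of a gene was used. The dimmer probe sets of Nr4a2 had LPS differences from -0.17 to 0.67, and that of Cx3cl1 averaged -0.08. None of these probe sets was called on average.

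Between the steady and the LPS-carried genes stood some whose fitted differences were positive in each condition and largest after LPS. Havcr2 codes for TIM-3, an inhibitory receptor. At 0 h it read 6.94, 7.21 and 7.16 in KO arrays, against 6.53, 6.60 and 5.97 in WT arrays. After vehicle it read 6.55, 6.73 and 8.21 in KO arrays, against 6.23, 6.21 and 5.98 in WT arrays, and KO replicate 3 stood apart from its group. After LPS it read 6.87, 6.71 and 6.70 in KO arrays, against 4.71, 2.11 and 3.68 in WT arrays, of which 1 was above the nonspecific level. The genotypes did not overlap in any condition. The average was 1.68 ± 0.28 (adjusted p = 0.0049), from 0.74, 1.02 and 3.26, and the F test was not called (adjusted p = 0.125). Of the single conditions only LPS was called for Havcr2, and its average without LPS, 0.88, was not called (adjusted p = 0.59). Amz1, a metallopeptidase gene, had 0.60, 1.46 and 2.38 (average 1.48 ± 0.24), but none of its WT arrays was above the nonspecific level after LPS. With values raised to that level its differences were 0.60, 1.46 and 0.85 (average 0.97), so LPS was no longer the largest.

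A few averages came from 0 h instead. In 5 of the 92 genes that differed between conditions the largest difference was at 0 h, and they are named here after their values were seen. Trim2, a ubiquitin ligase gene, had 1.71, 0.70 and -0.11, Pgap4 had 1.36, 0.24 and -0.16, and Apbb1 had 1.21, 0.52 and -0.16. Trim2, Pgap4 and Apbb1 were above the nonspecific level in 2, 4 and 5 of 18 arrays, and Itgb3 in 3. Itgb3, which codes for the integrin beta 3 subunit, had -1.86, -0.25 and -0.01, and Fcgr2b, the inhibitory Fc gamma receptor gene, had -0.92, -0.32 and 0.09 and was above that level in all 18. Fcgr2b lost the call on average without KO number 1, KO number 2 or WT number 2 (adjusted p up to 0.088).

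Among genes lower in KO cells in all 3 conditions, C1qb had the largest average after Klf3. C1qb codes for a chain of C1q, which binds immune complexes and starts the classical complement pathway. At 0 h its log2 intensity was 9.44, 9.54 and 9.48 in KO arrays, against 10.21, 10.09 and 10.32 in WT arrays. After vehicle it was 8.98, 8.98 and 6.77 in KO arrays, against 9.84, 9.38 and 9.60 in WT arrays, and KO replicate 3 stood apart from its group. After LPS it was 5.88, 5.14 and 5.86 in KO arrays, against 9.64, 8.69 and 7.68 in WT arrays. The genotypes did not overlap in any condition, and the average was -1.71 ± 0.29, or 3.27-fold lower (adjusted p = 0.005). Its parts were -0.72, -1.36 and -3.04, with no call in the F test (adjusted p = 0.227). Of the single conditions only LPS was called for C1qb, and its average without LPS, -1.04, was not called (adjusted p = 0.429).

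Other complement genes were looked at after their values were seen. C1qc averaged -0.81 ± 0.15, C1ra -0.93 ± 0.17, C1rb -1.02 ± 0.19 and Cfp, which codes for properdin, -0.30 ± 0.07, and all 4 were called. The differences were -0.48, -0.87 and -1.09 for C1qc, -0.16, -0.74 and -1.89 for C1ra and -0.07, -0.14 and -0.68 for Cfp. C1qa was not called at -1.16 ± 0.33 (adjusted p = 0.109). C1rb differed between conditions (-0.27, -0.27 and -2.52), 10 of 18 arrays were above the nonspecific level, and after LPS, with 0 of 3 KO arrays above it, the gene was at least 2.67-fold lower in KO cells. Cfp lost the call in all 6 fits without the arrays of 1 genotype and number (adjusted p up to 0.26), and C1qc, C1ra and C1rb each lost it in 3 (adjusted p up to 0.095).

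Siglec1, Clec10a, Mgl2 and Mrc1, which code for lectin receptors of macrophages, were lower on average. Siglec1, which codes for sialoadhesin, read 6.37, 5.31 and 5.88 in KO arrays after LPS, against 7.71, 8.02 and 7.77 in WT arrays. Over all conditions it ran from 5.31 to 6.55 in KO arrays and from 6.43 to 8.02 in WT arrays. Its differences were -0.39, -0.74 and -1.98 (average -1.04 ± 0.14, adjusted p = 0.00077), and they differed between conditions (F test adjusted p = 0.0446). Clec10a and Mgl2, a pair of macrophage galactose-type lectin genes, averaged -1.67 ± 0.33 and -1.13 ± 0.22. At 0 h Clec10a overlapped, with 11.51, 11.49 and 11.07 in KO arrays, against 11.36, 11.99 and 11.57 in WT arrays. After LPS it did not, with 5.42, 4.25 and 3.52 in KO arrays, against 8.72, 7.33 and 6.33 in WT arrays. Clec10a lost the call without KO number 2, KO number 3, WT number 1 or WT number 2 (adjusted p up to 0.09) and Mgl2 without KO number 2 or 3 (adjusted p up to 0.11), and none of the KO arrays after LPS was above the nonspecific level for Mgl2. Mrc1, which codes for the mannose receptor, averaged -0.55 ± 0.10 (adjusted p = 0.0095), from -0.04, -0.50 and -1.11, and lost the call without WT number 3 (adjusted p = 0.058).

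Of 6 Fc receptor genes picked after their values were seen, 4 were lower and none higher, beside 0.702% lower among all genes, a count that supports nothing. Fcgr4, an activating receptor gene, had -0.20, -0.49 and -2.26 (average -0.99 ± 0.18, adjusted p = 0.0086), and Fcrls averaged -0.995 ± 0.23 (adjusted p = 0.0361). Fcgr4 lost the call without KO number 2, KO number 3 or WT number 2 (adjusted p up to 0.074), and Fcrls kept it only without WT number 3 (adjusted p up to 0.15). Fcgr1 and Fcgr3 were not called (-0.64 and -0.18, adjusted p = 0.0611 and 0.296). Csf3r, which codes for the receptor of G-CSF, averaged -1.11 ± 0.20 (adjusted p = 0.0086) and lost the call without WT number 1 or 2 (adjusted p up to 0.069).

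The calcium channel gene Cacna1d (average -1.31 ± 0.19) and the zinc finger gene Zfp618 (-1.11 ± 0.18) differed between conditions, with -3.10 and -2.42 after LPS. Slfn4, a Schlafen family gene induced by interferon, averaged -1.07 ± 0.20, from -1.49, -0.72 and -1.01. After vehicle 1 of 3 KO and 2 of 3 WT arrays were above the nonspecific level. With values raised to that level the vehicle difference was -0.06 and the average -0.85. Slfn4 lost the call without KO number 2, WT number 1 or WT number 3 (adjusted p up to 0.095). The acute phase gene Saa1 and Hp, which codes for haptoglobin, were lower on averages carried by LPS. Saa1 had fitted differences of 0.00, 0.07 and -4.49, but the 3 WT arrays after LPS were the only ones above the nonspecific level, and in KO cells after LPS it was at least 6.52-fold lower. Saa1 lost the call without KO number 2 or WT number 2 (adjusted p up to 0.055). Hp had 0.16, -0.11 and -2.90 and kept it in all 6 fits. Saa3 and Lcn2, other acute phase genes, were not called (0.06 and -0.10).

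Calls on average were spread unevenly over the gene lists, and the share called over all genes was 1.56%. Of 25 macrophage identity genes, 3 were lower (12%), Mrc1, Aif1 and Siglec1, and none was higher, with a median of -0.13. All 25 were above the nonspecific level in at least 1 array, and the log2 of their summed intensity was 15.47 to 15.66 in KO arrays and 15.64 to 15.79 in WT arrays. No member was called among 21 Toll-like receptor and adaptor genes, 13 MHC class II genes, 15 MHC class I genes, 24 lysosomal genes and 31 respiratory chain genes. Of 30 interferon-stimulated genes none was called, while 2 had a positive average and the median was -0.27, made of -0.63 at 0 h, -0.09 after vehicle and 0.02 after LPS. Of 25 mitosis genes none was called, 22 had a positive average and the median was 0.25. These medians are descriptions of lists whose members move together and carry no test.

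Beside the same 1.56% of all genes, 2 of 19 cholesterol synthesis genes were called (10.5%), and both, Idi1 (0.96 ± 0.19) and Insig1 (0.77 ± 0.17), were higher, while 7 differed between conditions, with list medians of -0.04 at 0 h, 0.03 after vehicle and 1.36 after LPS. The differences were 0.31, 0.05 and 2.52 for Idi1 and 0.07, -0.02 and 2.26 for Insig1. Idi1 lost its call without KO number 2, KO number 3 or WT number 1 and Insig1 without any 1 KO number or WT number 3 (adjusted p up to 0.087 and 0.19). Of 11 LXR target and efflux genes 1 was lower (9.09%), Apoe, at -0.69 ± 0.16 (adjusted p = 0.0399), from -0.84, -0.68 and -0.55. Apoe lost the call in all 6 fits that left out the arrays of 1 genotype and number (adjusted p from 0.068 to 0.15). Among 31 DNA replication genes 1 was lower (3.23%), Gins1 (-0.75 ± 0.16), among 21 glycolysis genes 1 was lower (4.76%), Pfkfb3 (-0.50 ± 0.10), and among 17 NF-kB genes 1 was lower (5.88%), Tnip2 (-0.28 ± 0.06). Gins1 had -0.28, 0.40 and -2.38, Pfkfb3 had -0.17, -0.01 and -1.33, and Tnip2 had -0.21, -0.06 and -0.58. Gins1 and Pfkfb3 lost the call in 4 of the 6 fits and Tnip2 in 5 (adjusted p up to 0.2, 0.1 and 0.14).

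The family and partners of KLF3 were counted as well. Of 21 measured Krüppel-like and SP factor genes 2 were called (9.52%, beside 1.56% of all genes), Klf9 higher and the knocked-out Klf3 lower, with a list median of 0.01. None of 14 genes for KLF3 corepressors and partners was called. Lgals3, a galectin gene that KLF3 is known to repress, was not called at 0.07 ± 0.06 (adjusted p = 0.711), with 12.83 to 13.17 in KO arrays and 12.58 to 13.17 in WT arrays. C1qtnf12, which codes for adipolin and is another gene known to be repressed by KLF3, was not called at 0.23 ± 0.07 (adjusted p = 0.126), with differences of 0.46, 0.18 and 0.06. None of 9 galectin genes was called.

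Markers of cell types other than macrophages were mostly at or near background. Of the 11 neutrophil markers measured, 6 were above the nonspecific level in no array, among them S100a9, Mpo and Elane, and 1 was called, Csf3r. The log2 of the summed neutrophil marker intensity was 7.29 to 9.54 in KO arrays and 7.57 to 10.4 in WT arrays. All 8 mast cell and basophil markers, all 4 eosinophil markers, 9 of 12 stromal, 6 of 7 B cell, 5 of 7 T and NK cell, 4 of 5 dendritic cell and 5 of 7 stem and progenitor markers were above that level in no array. Of the 7 osteoclast markers 1 was called, Acp5, and the sums ran from 8.61 to 10.7 in KO arrays and from 8.28 to 10.47 in WT arrays. No marker was called among 6 monocyte, 8 erythroid and megakaryocyte and 7 endothelial and adipocyte markers, of which 1, 2 and 3 were above that level in no array. The part of other cell types in the results was not tested. In whole cultures, fewer cells of a type and less RNA per cell cannot be told apart.

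The genes next to Klf3 in the genome were examined as well. Of the 25 tested genes on either side, 3 of 50 were called (6%), Stim2 and Shisa3 higher and Pcdh7 lower, beside 15 of the 1007 other genes of chromosome 5 (1.49%) and 1.56% of all genes. Stim2, a calcium sensor gene of the endoplasmic reticulum, had differences of -0.13, 0.00 and 1.47. Shisa3 had 0.17, 0.13 and 2.87, and Pcdh7, a protocadherin gene, had -0.40, -1.20 and -1.20. Stim2 and Pcdh7 each lost the call in 5 of the 6 fits without the arrays of 1 genotype and number and Shisa3 in 1, without KO number 3, with adjusted p up to 0.2, 0.19 and 0.078. The immediate neighbours on one side, Tlr1 and Tlr6, were not called (-0.08 and -0.40, adjusted p = 0.777 and 0.0869).

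**Figure D5:**
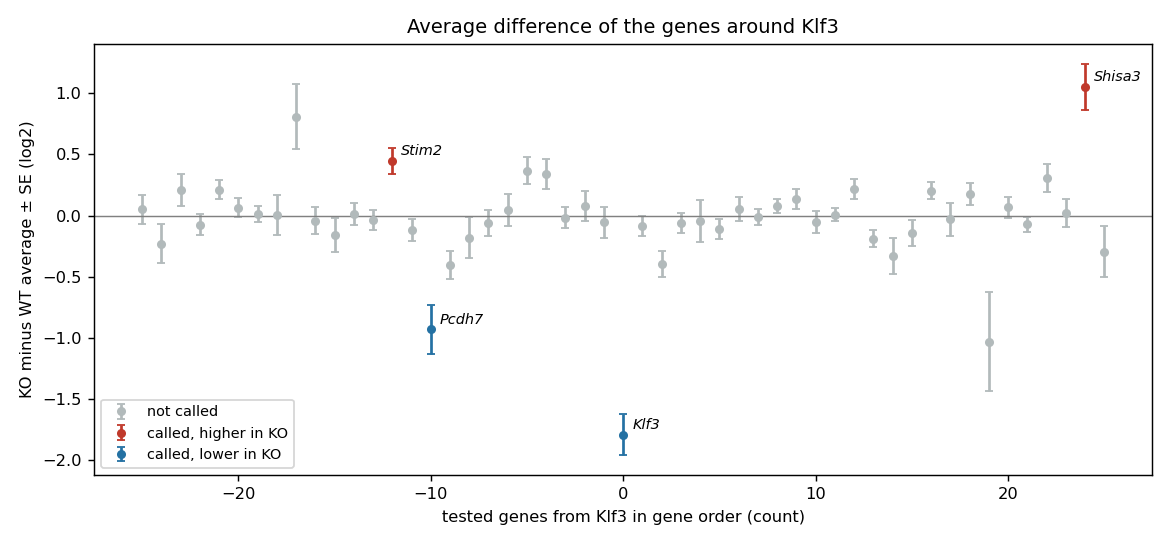
The x axis counts tested genes from Klf3 in gene order, and the y axis is the average KO minus WT difference in log2 with SE bars. Grey points were not called, red were called higher in KO cells and blue were called lower. Klf3 is at -1.79, and Stim2, Pcdh7 and Shisa3 are the called genes among the 50 others.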

How the data were processed

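RNA of 18 macrophage samples was labelled with a 3′ IVT kit and hybridised to an Affymetrix GeneChip HT MG-430PM plate, 1 array per sample, per the labels. The authors deposited linear intensity values for each probe set, and Partek is the tool named per the submitters' processing notes. Sources used here do not give its version, background correction or scaling. Deposited medians ran from 11.44 to 18.61, so log2 values were taken and quantile-normalized. Of 45141 probe sets, 104 controls were left out and 28898 had 1 gene symbol in the platform annotation, while 551 had several. The probe set with the highest mean stood for each of 17097 genes, 7180 of which had more than 1. Dim probe sets were kept, and a fold written as "at least" was set against the nonspecific level.

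The limma package 3.58.1 (R 4.3.3) estimated 1 mean for each of the 6 groups from the 18 arrays, with 12 residual degrees of freedom and no replicate block, and was tested on simulated data. The contrast was the mean of the 3 differences KO minus WT, and a moderated F test compared the 3. Two-sided p-values were adjusted by Benjamini-Hochberg over all genes, with a threshold of 0.05. Arrays have no depth, and their number limits the precision.

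The members, gene lists and rules were chosen with earlier results of these data known. Genes were named by these rules: Klf3, the 12 highest and the 12 lowest called averages with 1 sign in all conditions, up to 4 called members per list, the 8 smallest F test p-values and the 8 largest steady averages. Also named were called genes among the 25 on either side of Klf3 and genes known to be repressed by KLF3. Further genes are marked in the text as picked after their values were seen. Alternatives were other normalizations, blocks by replicate number, by genotype and number or by plate column, array weights, other treatments of dim and multiple probe sets, other averages, a narrower steady range and leaving out arrays.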

Additional observations from a re-analysis of the deposited data

Results flagged for a closer look

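Among the genes named by the rules, 26 had a KO minus WT difference that changed between the 3 conditions by limma's moderated F test (adjusted p under 0.05 over 17097 genes, 3 arrays per group). The values that follow are the difference after LPS minus the difference at 0 h, in log2, and they were positive in 19 genes and negative in 7. Cytokine and chemokine genes had 6.08 for Csf2, 4.01 for Il12a, 3.73 for Lif, 3.24 for Ccl22, 2.92 for Il6, 2.7 for Cx3cl1, 2.17 for Cxcl5 and 1.94 for Ccl17. Factors of signalling and transcription had 3.73 for Nr4a3, 2.94 for Cish, 1.57 for Nr4a2 and 1.23 for Spry1. The protease gene Adamts4 had 3.82, Lad1 and Macc1 had 2.81 and 2.64, and the sterol genes Idi1 and Insig1 had 2.21 and 2.19. Shisa3 and Stim2, which are among the 25 tested genes on either side of Klf3 in gene order, had 2.71 and 1.59.

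The negative values were -2.64 for Cacna1d, -2.25 for C1rb, -2.1 for Gins1, -2.07 for Fcgr4, -1.59 for Siglec1, -1.56 for Zfp618 and -1.16 for Pfkfb3. These are fitted values, and no WT array after LPS was above the nonspecific level for Csf2, Lif, Nr4a3, Adamts4 and Macc1, and no KO array after LPS for C1rb and Gins1. For each of the 26 the average over conditions combines differences of unlike size. Groups hold 3 arrays each, so single arrays were not tested as outliers.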

How the results depend on the processing

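The main analysis gave 146 higher, 120 lower, 257 condition-dependent and 66 steady genes. Equal array medians gave 67 lower and 18 steady genes, and no normalization gave 80 higher, 36 lower and 5 steady. Genes above the nonspecific level in at least 3 arrays, 10334 in number, held 182 lower and 122 steady genes. Array weights gave 233 higher, 202 lower and 100 steady. The average without LPS gave 35 higher and 7 lower, and averages of the 3 arrays of a genotype and number, tested 3 against 3, gave 42 and 21. A steady range of 1.5-fold left 6 genes. Leaving out WT replicate 1 after LPS, chosen after seeing the data, gave 246 higher, 510 condition-dependent and 109 steady. Leaving out the arrays of 1 genotype and number gave 55 to 130 higher, 38 to 152 lower, 57 to 273 condition-dependent and 9 to 39 steady genes. The cause of these shifts was not tested.

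With the replicate number as a block the counts were 147 higher, 130 lower, 229 condition-dependent and 70 steady. The labels give the numbers no shared origin, although same-numbered arrays of a genotype lie in 1 plate column in all conditions (KO and WT arrays of 1 number lie in different columns). Deviations of same-numbered arrays of a genotype in other conditions correlated with a median of 0.041 (over 0.1 in 2 of 18 pairs). Those of other-numbered arrays of a genotype had a median of -0.025 (1 of 36), and those of KO and WT arrays of 1 number -0.003 (1 of 9). Whether same-numbered arrays share an origin cannot be told from these values, and the numbers were not taken to pair samples. Other counts, including those with a plate column block or genotype and number as a random block, were within 1.5 times the main ones. Of 1062 values of named genes, 874 kept direction and side of the threshold. The reversals, all without LPS, were Il12a (-0.034), Cx3cl1 (-0.11), Nr4a2 (-0.012), Gins1 (0.061) and Stim2 (-0.061). Of 57 called named genes 10 kept the call throughout. The number of arrays and the signal over background limit the precision, and for 4 called genes, Bcl6b, Hpn, Med12l and Rin1, named after their values were seen, no array lay above the nonspecific level.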
